A study of Mus musculus with 18 samples.

Results

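Transcripts of 10 genes of the prostaglandin and leukotriene pathways were followed in the cortex and the skull of BALB/c mice after ischemic injury. The genes were taken by name from the deposited table of gene counts, and all 10 were found among its 25918 gene names: Ptgs1, Ptgs2, Ptges, Ptgds, Tbxas1, Hpgd, Alox5, Alox5ap, Ptger2 and Ptger4. The study sequenced polyadenylated RNA of both tissues to follow gene expression at chosen times after the injury. The 6 groups held 3 libraries each, 18 in all, namely cortex at day 2 and at day 6 of ischemic injury with control cortex, and interparietal bone, a bone of the skull roof, at day 2 and at day 4 with control bone. The injured tissue taken held ischemic and peri-ischemic regions. The labels give 1 strain for all groups and no genotype, age or sex, do not say how ischemia was induced or what the controls underwent, and do not say whether a library is 1 animal. A p-value below therefore measures the spread between these libraries, which may be technical.

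Prostaglandins and thromboxane are lipid mediators made from arachidonic acid, which phospholipases release from membranes. The cyclooxygenases encoded by Ptgs1, mostly constitutive, and Ptgs2, mostly inducible, turn arachidonic acid into prostaglandin H2, from which terminal synthases make prostaglandin E2 (Ptges), prostaglandin D2 (Ptgds) and thromboxane A2 (Tbxas1). Hpgd oxidises prostaglandins to inactive forms, and Ptger2 and Ptger4 encode the EP2 and EP4 receptors for prostaglandin E2. In a parallel branch 5-lipoxygenase (Alox5), helped by its activating protein (Alox5ap), makes leukotrienes, chiefly in myeloid cells. Prostaglandin E2 is known as a mediator of inflammation, fever, pain and bone turnover, and Ptgds is known as one of the most abundant transcripts of the leptomeninges and choroid plexus. In GENCODE M21 on GRCm38 (mm10) the cyclooxygenase genes lie at chr2:36230426-36252272 (Ptgs1) and chr1:150100031-150108227 (Ptgs2), the synthase genes at chr2:30889471-30929863 (Ptges), chr2:25466709-25470046 (Ptgds) and chr6:38875404-39084585 (Tbxas1), and Hpgd at chr8:56294585-56321043. Alox5 lies at chr6:116410077-116461178, Alox5ap at chr5:149264767-149288153, Ptger2 at chr14:44988195-45003820 and Ptger4 at chr15:5206661-5244187.

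The promoters of Ptgs2, Ptgs1 and Ptges are shown because the cyclooxygenases moved apart in skull and Ptges changed in the same direction as Ptgs2 there. RefSeq windows on GRCm38.p6, from 250 bases before to 50 bases after the annotated start, were found for 9 of the 10 genes; Alox5ap was not matched. Capitals mark matches, on either strand, to 1 of 5 motifs searched: TATAAA, the CRE core TGACG, the E-box CACGTG, the PU.1 core GAGGAAG and the NF-kB consensus. The first is the window of Ptgs2 (chr1:150099781-150100080, plus strand), the next that of Ptgs1 (chr2:36230176-36230475, plus strand) and the last that of Ptges (chr2:30903248-30903547, minus strand), each written 5′ to 3′ on the strand of its gene.
Ptgs2: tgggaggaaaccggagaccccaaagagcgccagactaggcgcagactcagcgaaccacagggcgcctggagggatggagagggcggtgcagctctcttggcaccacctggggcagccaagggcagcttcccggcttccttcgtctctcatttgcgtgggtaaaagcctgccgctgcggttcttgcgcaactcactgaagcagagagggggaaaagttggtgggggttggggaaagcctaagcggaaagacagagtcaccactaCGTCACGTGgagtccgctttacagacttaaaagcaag
Ptgs1: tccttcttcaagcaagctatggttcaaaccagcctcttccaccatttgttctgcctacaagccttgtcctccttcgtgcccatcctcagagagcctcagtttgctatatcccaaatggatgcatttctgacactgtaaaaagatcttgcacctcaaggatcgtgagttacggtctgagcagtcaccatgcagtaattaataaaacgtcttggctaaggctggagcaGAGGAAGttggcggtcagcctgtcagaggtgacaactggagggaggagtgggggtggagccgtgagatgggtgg
Ptges: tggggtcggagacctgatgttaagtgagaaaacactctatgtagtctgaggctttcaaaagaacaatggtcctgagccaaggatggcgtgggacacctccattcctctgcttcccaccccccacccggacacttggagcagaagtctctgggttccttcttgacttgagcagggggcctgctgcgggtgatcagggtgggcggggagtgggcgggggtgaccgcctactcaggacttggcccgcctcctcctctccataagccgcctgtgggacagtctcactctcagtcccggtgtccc

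In the Ptgs2 window a CRE core on the opposite strand, read as CGTCA, began at base 14 after the start and overlapped an E-box that began at base 17. The Ptgs1 window held a PU.1 core at base -24, and the Ptges window matched none of the 5 motifs. That Ptges window stands at a RefSeq start inside the GENCODE span of the gene, not at the start of the gene there. Other starts of Ptges were not searched. Elsewhere among the 9 windows, Ptgds held an NF-kB consensus at base -22, Hpgd held TATAAA at base 5, and Tbxas1 held TATAAA on both strands, at bases -11 and -13, and a PU.1 core on the opposite strand at base -20. Of all 32851 promoter windows of this length, 20.8% held TGACG, 7.15% CACGTG, 13.6% TATAAA, 13.6% GAGGAAG and 4.51% the NF-kB consensus. A match describes letters in the window and is not a measured binding site.

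Total counts per library were 17199036 to 18476057 in cortex at day 2, 13005050 to 22236424 at day 6 and 23673255 to 27654269 in control cortex. In skull they were 15113558 to 15382973 at day 2, 13142770 to 15445503 at day 4 and 13398631 to 14765111 in controls. Levels below are CPM, the counts of a gene relative to the total of its library scaled by TMM factors over all 18 libraries, in the order of replicates 1, 2 and 3. The tissues carried their markers: 8 neuron genes summed to 4444 to 8839.6 CPM in cortex libraries, and 7 osteoblast genes to 22097 to 73328 CPM in skull libraries. Skull libraries also carried transcripts of brain tissue. The 8 choroid plexus markers summed to 534, 11792 and 2857 CPM at day 2 and to 4442, 2378 and 939 CPM at day 4, against 361, 444 and 389 CPM in control skull, so that day 2 replicate 2 stood far apart. The 8 neuron markers in skull ran the other way, with 53.9 to 174 CPM at day 2 and 106 to 139.6 CPM at day 4, against 615 to 629.8 CPM in controls, of which replicate 2 stood apart in single neuron genes. Exons of Ptgs1, Tbxas1, Alox5ap, Ptger2 and Ptger4 overlap those of an annotated gene on the opposite strand. The longest overlap of any 1 pair of exons was 82 to 872 bases, and the whole overlap may be larger. The labels do not say whether counting used strand, so that reads from such stretches cannot be told apart.

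At day 2 in cortex, 7 of the 10 genes rose and none fell: Ptges, Tbxas1, Alox5ap, Alox5, Hpgd, Ptger4 and Ptgs2. A gene is called here when the adjusted p of edgeR's quasi-likelihood test is below 0.05, and 24.7% of all genes tested were called in that comparison, 14.7% of all as higher and 9.99% as lower. The median log2 change of the 10 genes was 1.43, against 0.00 over all genes tested. The libraries did not overlap with control for 8 of the 10, Ptgds included, and for 39.7% of all genes. All 10 passed the filter on low counts in every comparison. In bulk tissue, fewer cells of a type and less RNA per cell cannot be told apart. At day 6 in cortex, 5 rose and none fell (Tbxas1, Alox5ap, Ptges, Ptger4 and Hpgd), where 10.3% of all genes were called (7.93% higher, 2.38% lower), and the median was 0.84, against -0.02 over all genes. Libraries did not overlap for 4 of the 10 and for 31.8% of all genes. The count of 5 genes called depended on single libraries. It was 1 without day 6 replicate 2, 1 without day 6 replicate 3, 2 without control replicate 1, 3 without control replicate 2 and 2 without control replicate 3, against 7 without day 6 replicate 1. Between the days, Ptges and Ptgs2 were lower at day 6 than at day 2, 2 of 10 genes where 11.6% of all genes were called (5.30% higher, 6.26% lower). The days did not overlap for 5 of the 10 and for 30.5% of all genes. Leaving out any 1 library of days 6 and 2 left 1 of these calls.

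In skull at day 2, 5 genes rose (Ptgs2, Ptger4, Hpgd, Ptges and Ptger2) and Ptgds fell. This count of 6 of 10 stands beside 34.4% of all genes called, 17.8% higher and 16.6% lower, and the median log2 change was 0.44, against -0.01 over all genes. Libraries did not overlap with control for 7 of the 10 and for 47.8% of all genes. At day 4, Hpgd, Ptgs1 and Ptger2 rose and Ptgds fell, 4 of 10 where 10.6% of all genes were called (5.83% higher, 4.79% lower). There 6 of the 10, and 31.0% of all genes, did not overlap with control. The day 4 calls rest on few libraries. Their number was 0 without day 4 replicate 3, when 237 genes of all were called in place of 1853, and 0 without control replicate 3, when 10 genes were. It was 2 without day 4 replicate 1, 2 without day 4 replicate 2 and 1 without control replicate 1. Between the days, Ptgs1, Alox5 and Tbxas1 were higher at day 4 than at day 2, and Ptgs2, Ptges and Ptger4 were lower, 6 of 10 where 21.6% of all genes were called (10.6% higher, 11.1% lower). For these 6, and for 43.0% of all genes, the days did not overlap. Without day 2 replicate 3 this count was 3.

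**Figure D1:**
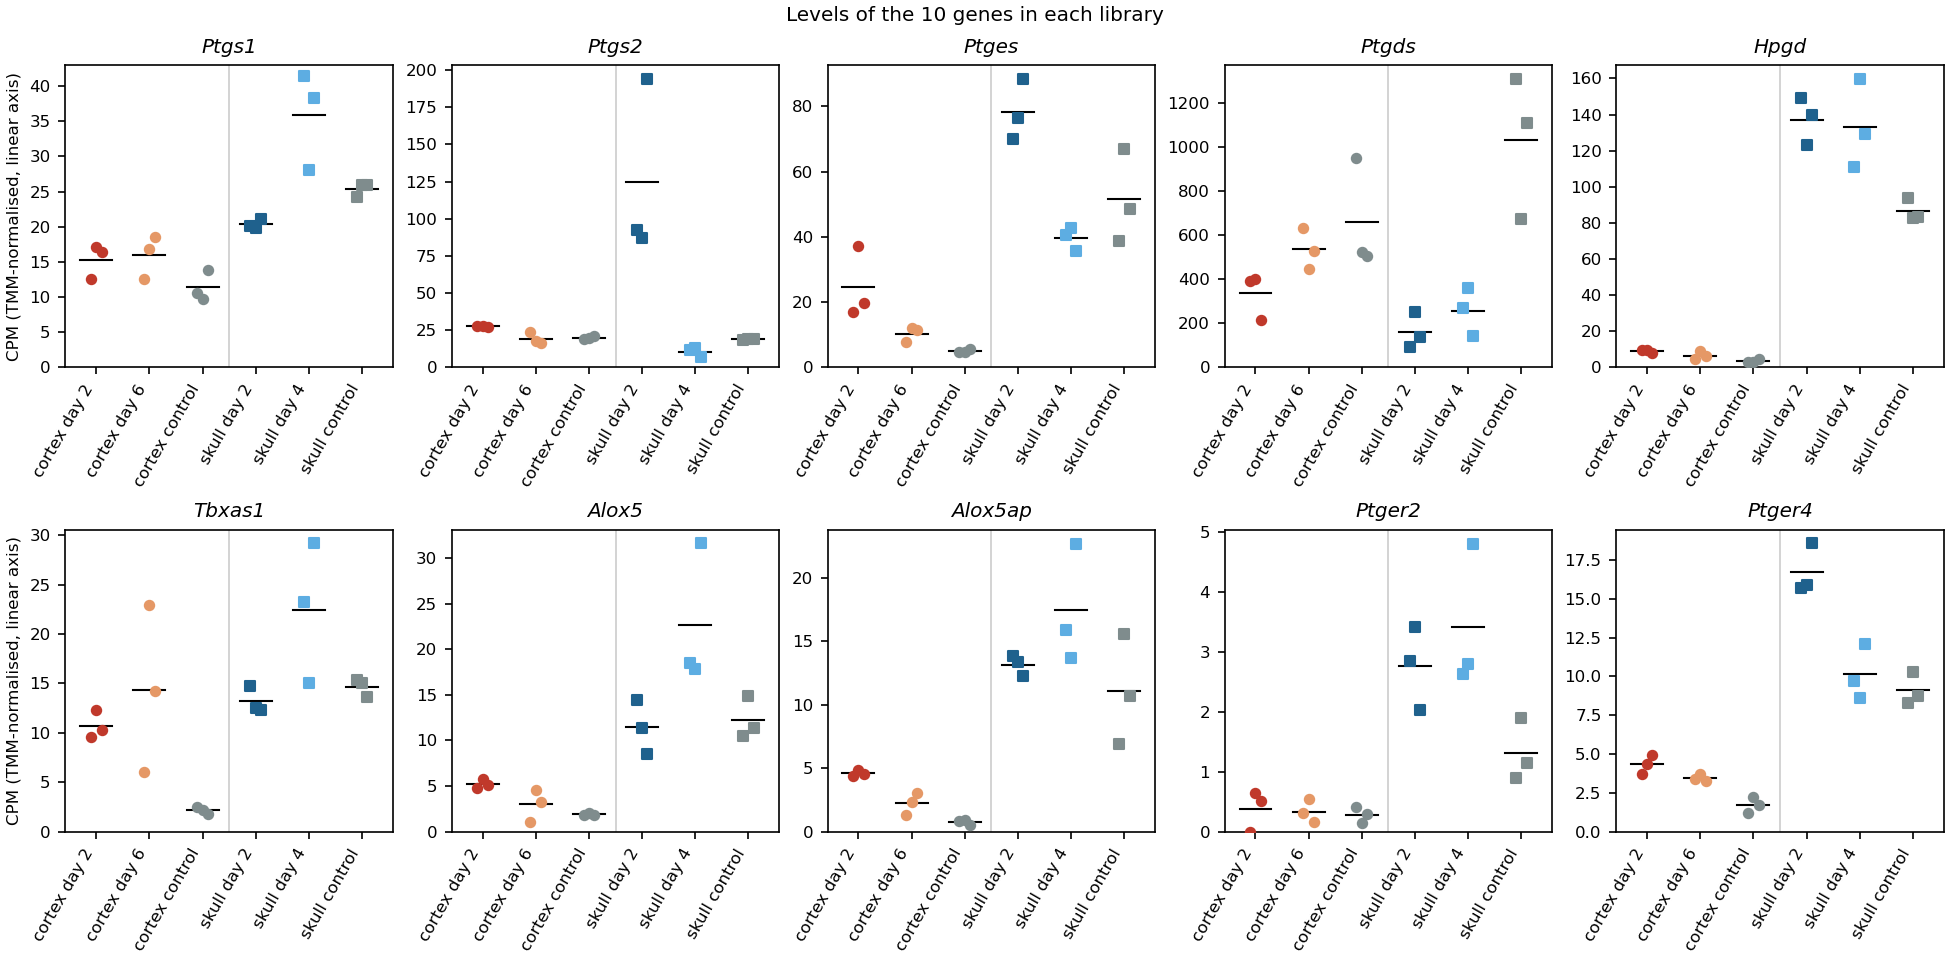
Level of each of the 10 genes in each of the 18 libraries, in CPM on linear axes that start at 0. Circles are cortex and squares are skull libraries, and the bar is the mean of a group of 3. The Ptgs2 points of skull at day 2 (87.3 to 194 CPM) lie above all other Ptgs2 points, and the Ptgds points of injured skull (89.9 to 359.5 CPM) lie below those of control skull (672 to 1309 CPM).

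**Figure D2:**
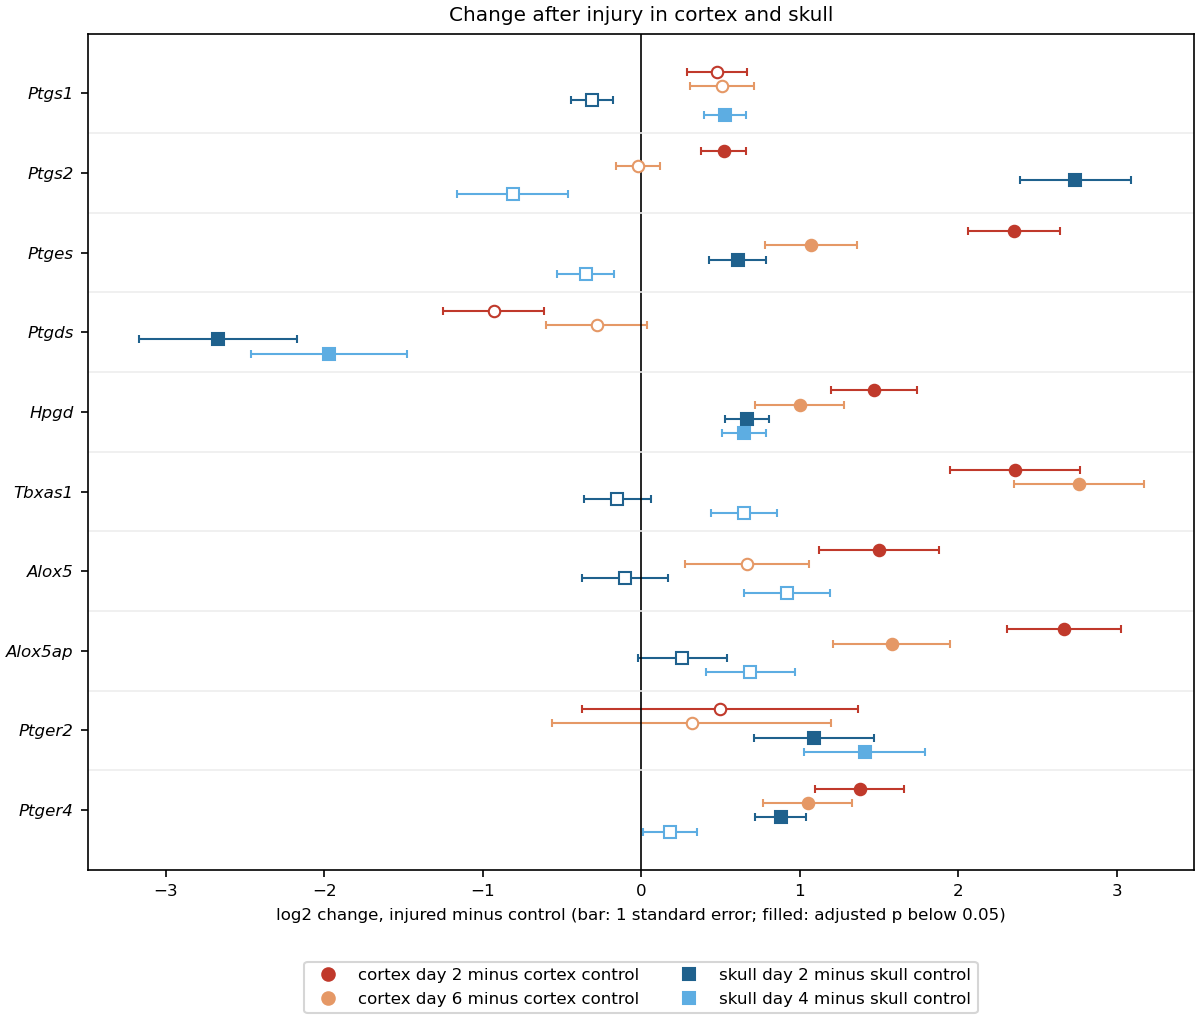
Log2 change of each gene after injury against the control of the same tissue, with bars of 1 standard error from the edgeR fit. Filled symbols have an adjusted p below 0.05. Circles are cortex at day 2 and day 6, squares are skull at day 2 and day 4; the skull points of Ptgs2 lie at 2.74 and -0.81, and those of Ptgds at -2.67 and -1.97.

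Ptgs2 had its larger rise in skull, at day 2, and was no longer above control there at day 4. Its level was 92.6, 87.3 and 194 CPM in skull at day 2 and 11.7, 12.7 and 7.08 CPM at day 4, against 18.3, 19.2 and 18.9 CPM in control skull. All 3 libraries of day 2 lay above, and all 3 of day 4 below, the 3 control libraries. The day 2 rise was 2.74 ± 0.35 on the log2 scale (adjusted p = 0.00101, n = 3 each), and 2.26 without day 2 replicate 3, the highest library. The difference of day 4 from control, -0.81 ± 0.35, did not pass the test (adjusted p = 0.183), but passed with DESeq2 (adjusted p = 0.0423). Day 4 was lower than day 2 by -3.55 ± 0.36 (adjusted p = 8.09e-04).

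In cortex the change of Ptgs2 was small. Levels were 28.0, 27.7 and 26.9 CPM at day 2 and 23.5, 17.9 and 16.3 CPM at day 6, against 18.8, 19.9 and 20.8 CPM in control cortex. The day 2 libraries lay above every control library, and those of day 6 spanned the controls. Ptgs2 rose at day 2 by 0.52 ± 0.14 (adjusted p = 0.0137; 0.0504 without control replicate 2) and at day 6 differed from control by -0.02, with a 95% interval of -0.29 to 0.26. Day 6 was lower than day 2 by -0.53 ± 0.14 (adjusted p = 0.0245), a call that was lost in 5 of the 6 fits without 1 library of those days.

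Ptgs1 rose in skull at day 4. It had 20.1, 19.8 and 21.1 CPM at day 2 and 41.4, 28.1 and 38.3 CPM at day 4, against 24.3, 26.0 and 25.9 CPM in control skull. At day 2 the change of -0.31 did not pass the test (adjusted p = 0.0916), although the libraries did not overlap with the controls; in a fit of those 2 groups alone it did (adjusted p = 0.0384). At day 4 Ptgs1 rose by 0.53 ± 0.13 (adjusted p = 0.0323), a call held in 8 of 14 other settings (8 other processing choices and each of 6 libraries left out), and it was 0.84 ± 0.13 higher than at day 2 (adjusted p = 0.00244; called in 14 of 14). In cortex it had 12.5, 17.1 and 16.4 CPM at day 2 and 12.6, 16.9 and 18.5 CPM at day 6, against 10.5, 9.76 and 13.9 CPM in controls, so that the groups overlapped. Neither difference passed the test, at 0.48 (adjusted p = 0.0934, 95% interval 0.09 to 0.86) and 0.51 (adjusted p = 0.119).

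Per exon length, the ratio of Ptgs2 to Ptgs1 separated the skull groups. It was 3.91, 3.73 and 7.80 in skull at day 2 and 0.239, 0.384 and 0.157 at day 4, against 0.637, 0.625 and 0.618 in control skull. The 3 groups did not overlap. Cortex ratios at day 2 were 1.90, 1.37 and 1.40, and those at day 6 were 1.57, 0.900 and 0.748, against 1.52, 1.73 and 1.27 in controls, and the groups overlapped. The ratio was not tested by itself.

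**Figure D3:**
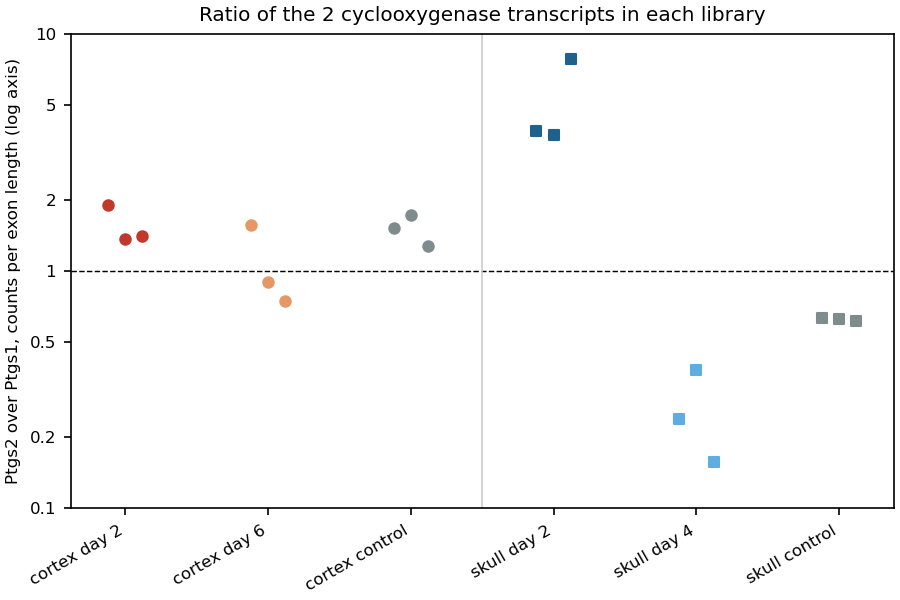
Ratio of Ptgs2 to Ptgs1 counts, each divided by its exon length, in each library on a log axis, with a dashed line at 1. Skull at day 2 lies at 3.73 to 7.80 and skull at day 4 at 0.157 to 0.384, around the control skull libraries near 0.6; the 9 cortex libraries lie between 0.748 and 1.90.

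Ptges, the inducible prostaglandin E synthase, rose most in cortex at day 2. It had 16.9, 37.3 and 19.8 CPM at day 2 and 7.62, 11.9 and 11.5 CPM at day 6, against 4.75, 4.60 and 5.66 CPM in control cortex. The 3 groups did not overlap. The rise was 2.35 ± 0.29 at day 2 (adjusted p = 1.54e-04, called in 14 of 14 other settings) and 1.07 ± 0.29 at day 6 (adjusted p = 0.0393, called in 8 of 14), and day 6 lay below day 2 by -1.28 ± 0.28 (adjusted p = 0.0143; 0.0562 without day 6 replicate 1, and a value of -0.83 without day 2 replicate 2). In skull, where the gene is more abundant, it had 69.9, 76.3 and 88.4 CPM at day 2 and 40.4, 42.7 and 35.5 CPM at day 4, against 38.8, 67.0 and 48.6 CPM in controls. All day 2 libraries lay above the controls, whose replicate 2 came close. The day 2 rise of 0.61 ± 0.18 passed the test (adjusted p = 0.0270), but not without day 2 replicate 2 (0.0562), without day 2 replicate 3 (0.0954), without control replicate 1 (0.0635), without control replicate 3 (0.0990) or in a fit of these groups alone (0.0669). Day 4 was lower than day 2 by -0.96 ± 0.18 (adjusted p = 0.00681), a call held in 14 of 14 other settings.

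Ptgds, the lipocalin-type prostaglandin D synthase, was the member that fell. In skull it had 89.9, 252 and 139 CPM at day 2 and 267, 359.5 and 144 CPM at day 4, against 1309, 672 and 1106 CPM in controls. Every injured library lay below every control library. The fall was -2.67 ± 0.50 at day 2 (adjusted p = 0.00638) and -1.97 ± 0.49 at day 4 (adjusted p = 0.0462). At day 2 the call held in 14 of 14 other settings and the value was -3.16 without replicate 2, the library richest in choroid plexus transcripts. At day 4 the call was lost without any 1 of the 6 libraries, with adjusted p between 0.0539 and 0.133.

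Markers of brain and meningeal cell types moved in the same skull libraries. All 8 neuron markers fell at day 2 and 6 of 8 at day 4, with medians of -2.81 and -2.97, in the direction of Ptgds. Of the 8 choroid plexus markers, 2 rose at day 2 and 1 at day 4 and none fell, against the direction of Ptgds, with transthyretin (Ttr) at 74.4, 7631 and 1487 CPM at day 2 and 2627, 1364 and 370.4 CPM at day 4, against 1.72, 5.93 and 3.65 CPM in controls. Within day 2, replicate 2 was highest in both Ptgds and the choroid plexus sum, and within day 4 Ptgds was highest in replicate 2 and that sum in replicate 1. Of 8 meningeal fibroblast markers, 2 rose and 2 fell at day 2 (median -0.04), and 1 rose and 2 fell at day 4 (median -0.28). Among those with lower means, Slc47a1 averaged 44.4 CPM at day 2 and 138 CPM at day 4, against 232 CPM in controls. Slc6a13, of the same list, averaged 4.25 CPM at day 2 and 8.11 CPM at day 4, against 18.8 CPM in controls. Slc47a1 and Slc6a13 do not stand for the list, in which 2 markers rose at day 2 and 1 at day 4. Of 6 astrocyte markers, 1 rose and 2 fell at each time (medians -0.93 and -1.82), and none of the 5 oligodendrocyte markers tested passed the test at either time (medians -0.84 and -0.31).

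Control skull replicate 2 stood apart in brain markers. Rbfox3 had 32.0, 2.09 and 21.9 CPM in the 3 controls, Gad1 46.9, 6.00 and 30.2 CPM, and the sum of 6 astrocyte markers 1180.5, 579.6 and 955 CPM. Ptgds, at 1309, 672 and 1106 CPM, had the same order, whereas Snap25 and Syp were highest in replicate 2, so that the neuron sum was alike in all 3. The order was not particular to brain markers. The meningeal fibroblast sum (57185, 28779 and 46487 CPM) and the osteoblast sum (40726, 22097 and 34757 CPM) had it too. These sums need not be independent, as their lists hold the collagen genes Col1a2 and Col1a1. The meningeal list summed to only 94.1 to 200.2 CPM in control cortex, so that its sum in skull is not a measure of meninges alone. Other sums, such as that of neutrophil markers (1389.9, 2504 and 1887 CPM), had the reverse order. Without control replicate 2 the fall of Ptgds was -2.90 at day 2 (adjusted p = 0.0111) and -2.21 at day 4 (adjusted p = 0.0539). No neuron or choroid plexus marker was without a count in all 3 libraries of a skull group. The part of any of these lists in the fall of Ptgds was not tested.

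**Figure D4:**
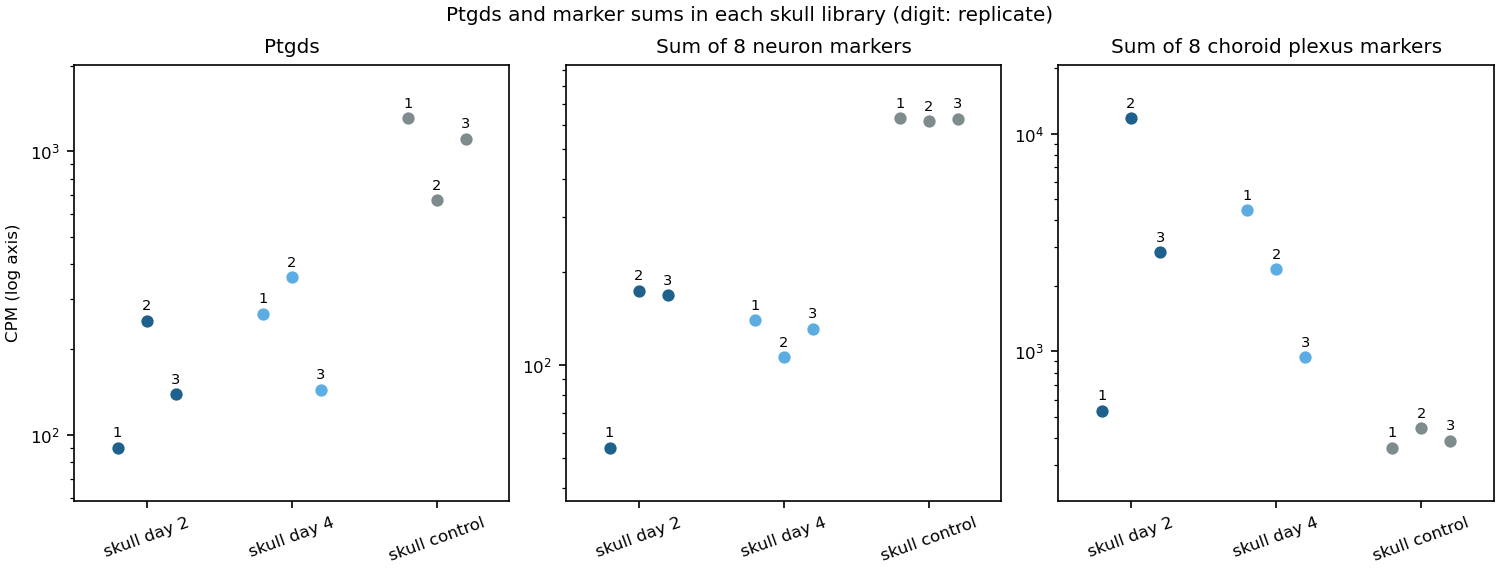
Ptgds, the sum of 8 neuron markers and the sum of 8 choroid plexus markers in each skull library, in CPM on log axes, with the replicate number above each point. Control skull is highest for Ptgds (672 to 1309 CPM) and the neuron sum (615 to 629.8 CPM) and lowest for the choroid plexus sum (361 to 444 CPM).

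In cortex Ptgds had 391, 400.0 and 215 CPM at day 2 and 631, 447 and 529 CPM at day 6, against 948, 523 and 507 CPM in controls. The day 2 libraries lay below the controls and the day 6 libraries overlapped them. The day 2 difference of -0.93 ± 0.32 did not pass the test (adjusted p = 0.0728), but passed with DESeq2 (0.0336) and limma voom (0.0220). At day 6 it was -0.28 (adjusted p = 0.667, 95% interval -0.90 to 0.35).

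Tbxas1, thromboxane A synthase, known from platelets and macrophages, rose in cortex at both times. It had 9.54, 12.3 and 10.3 CPM at day 2 and 6.01, 22.9 and 14.2 CPM at day 6, against 2.52, 2.19 and 1.76 CPM in controls, with no overlap. The rise was 2.36 ± 0.41 at day 2 (adjusted p = 0.00181) and 2.76 ± 0.41 at day 6 (adjusted p = 0.00181), each called in 14 of 14 other settings. Tbxas1 was the only one of the 10 genes with that record at day 6. Of 8 monocyte and macrophage markers, 7 rose at day 2 and 5 at day 6, with median log2 changes of 3.07 and 2.14. Day 6 against day 2, 2 of them were higher and 2 lower, with a median of -1.16. The most abundant of them in injured cortex was the lysozyme gene Lyz2, which had 132, 238 and 183 CPM at day 2 and 401, 1559.7 and 979 CPM at day 6, against a mean of 9.46 CPM in control cortex. Ccr2, a receptor of inflammatory monocytes, averaged 19.4 CPM at day 2 and 3.47 CPM at day 6, against 0.697 CPM in controls, and Mrc1 and F13a1 also had lower means at day 6 than at day 2. The markers of the list thus did not move as 1 group between the days. Within day 6, both Tbxas1 and Lyz2 were highest in replicate 2 and lowest in replicate 1. The marker sums of microglia (533, 824 and 662 CPM), endothelium (280.4, 349 and 316 CPM) and meningeal fibroblasts (259, 731 and 494 CPM) shared this order. The neuron sum (7256, 6630.2 and 6762 CPM) had the reverse. Of 8 microglia markers, 4 rose and 2 fell at day 2 (median 0.73), and 7 rose and none fell at day 6 (median 1.05). The share of any of these cell types in the change of Tbxas1 was not tested.

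In skull Tbxas1 had 14.7, 12.5 and 12.3 CPM at day 2 and 23.2, 15.0 and 29.2 CPM at day 4, against 15.3, 15.0 and 13.6 CPM in controls. Day 2 differed from control by -0.15 (95% interval -0.56 to 0.26). The day 4 difference of 0.65 ± 0.21 did not pass the test (adjusted p = 0.0752) but did with DESeq2 (0.0430) and without day 4 replicate 2 (0.0314), and day 4 was 0.80 ± 0.21 higher than day 2 (adjusted p = 0.0243, called in 10 of 14 other settings). The sum of 4 platelet markers was 404, 345 and 219 CPM at day 2 and 713, 369 and 799 CPM at day 4, against 288, 319 and 305 CPM in controls. At day 4 Tbxas1, Ptgs1 and this sum were each lowest in replicate 2. The low replicate 2 was not particular to platelet markers. The neutrophil sum (5526, 4371 and 8359.9 CPM) and the monocyte and macrophage sum (1912, 1576 and 2287 CPM) were lowest there too. The osteoblast sum (50321, 73328 and 70561 CPM) and the meningeal fibroblast sum (63957, 85384 and 79587 CPM) were highest there. As in the controls, these sums need not be independent. None of the 4 platelet markers passed the test at day 4 against control (median 1.07). Day 4 against day 2, where Tbxas1 was called, 2 of the 4 were higher (median 1.07). In that comparison 5 of the 8 monocyte and macrophage markers were also higher and 1 was lower (median 0.57). What any of these lists contributed to the change of Tbxas1 was not tested.

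Hpgd, the prostaglandin-degrading dehydrogenase, was higher than control in all 4 injured groups. It had 9.33, 9.33 and 8.07 CPM in cortex at day 2 and 4.36, 8.85 and 6.32 CPM at day 6, against 2.81, 2.71 and 4.39 CPM in controls. At day 6 replicate 1 fell just below control replicate 3. The rise was 1.47 ± 0.27 at day 2 (adjusted p = 0.00138) and 1.00 ± 0.28 at day 6 (adjusted p = 0.0318, called in 9 of 14 other settings). In skull it had 149, 123 and 139.8 CPM at day 2 and 111, 159.5 and 129 CPM at day 4, against 93.9, 82.5 and 83.4 CPM in controls, with no overlap with control at either time. The rise was 0.67 ± 0.14 at day 2 (adjusted p = 0.00519) and 0.65 ± 0.14 at day 4 (adjusted p = 0.0218, called in 10 of 14), and the days differed by -0.02 (95% interval -0.29 to 0.25).

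The pair that starts leukotriene synthesis rose in cortex at day 2. Alox5ap had 4.34, 4.88 and 4.55 CPM at day 2 and 1.30, 2.29 and 3.04 CPM at day 6, against 0.826, 0.891 and 0.492 CPM in control cortex. All 3 groups were separate. It rose by 2.67 ± 0.36 at day 2 (adjusted p = 1.33e-04) and by 1.58 ± 0.37 at day 6 (adjusted p = 0.0133, called in 11 of 14 other settings), and the difference of day 6 from day 2, -1.09 ± 0.34, did not pass the test (adjusted p = 0.0517; 0.0259 with DESeq2 and 0.0262 with limma voom). Alox5 had 4.77, 5.81 and 5.12 CPM at day 2 and 1.10, 4.54 and 3.28 CPM at day 6, against 1.86, 2.08 and 1.76 CPM in controls. It rose by 1.50 ± 0.38 at day 2 (adjusted p = 0.0105), while at day 6 replicate 1 lay below the controls and the difference of 0.67 did not pass the test (adjusted p = 0.325; 0.0203 without replicate 1). The ratio of Alox5 to Alox5ap per exon length was 0.380 to 0.412 at day 2 and 0.293 to 0.685 at day 6, against 0.778 to 1.24 in control cortex.

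Neutrophil markers moved in the same cortex libraries. The sum of 10 was 78.2, 97.4 and 76.2 CPM at day 2 and 33.4, 44.4 and 39.5 CPM at day 6, against 11.9, 7.83 and 8.41 CPM in controls. At day 6 most of it was 1 gene, Csf3r, with 26.7, 39.4 and 34.2 CPM (mean 36.3 CPM at day 2 and 7.33 CPM in controls). Cxcr2, S100a8 and S100a9 averaged 8.44, 8.52 and 26.6 CPM at day 2 and 0.243, 1.28 and 1.08 CPM at day 6. Ly6g and Camp averaged 0.0517 and 0.0661 CPM at day 2, against 0.0824 and 0.179 CPM in controls. Of the 7 markers tested, 5 rose at day 2 and 4 at day 6. Day 6 against day 2, 3 of the 7 were lower, and 6 of the 8 monocyte and macrophage markers had lower means at day 6 than at day 2; Alox5ap was likewise highest at day 2. None of the markers in either list was without a count in a whole group. The 8 microglia markers summed to 467 to 521 CPM at day 2 and 533 to 824 CPM at day 6, against 267 to 305 CPM in control cortex. The 8 endothelial markers summed to 312 to 471 CPM at day 2 and 280.4 to 349 CPM at day 6, against 208 to 229 CPM in controls. What these cells contributed to the changes of the 10 genes in cortex was not tested.

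In skull neither gene passed the test against control. Alox5 had 14.4, 11.3 and 8.54 CPM at day 2 and 18.5, 17.8 and 31.6 CPM at day 4, against 10.5, 14.9 and 11.4 CPM in controls. The day 4 libraries lay above all controls, with a difference of 0.92 ± 0.27 (adjusted p = 0.0589; 0.0134 with DESeq2), and 1.01 ± 0.27 above day 2 (adjusted p = 0.0265, called in 10 of 14 other settings). Alox5ap had 13.8, 13.4 and 12.3 CPM at day 2 and 15.9, 13.7 and 22.7 CPM at day 4, against 6.87, 15.6 and 10.7 CPM in controls, whose range held the day 2 libraries. Its changes were 0.26 (95% interval -0.29 to 0.81) and 0.69 (0.14 to 1.24, adjusted p = 0.143). The neutrophil sum in skull was 2911, 2829.5 and 2655 CPM at day 2 and 5526, 4371 and 8359.9 CPM at day 4, against 1389.9, 2504 and 1887 CPM in controls, and 9 of its 10 markers rose at day 4. Replicate 3 of day 4 was highest in Alox5, Alox5ap and this sum.

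Of the prostaglandin E2 receptors, Ptger4 rose in both tissues at day 2. It had 3.70, 4.35 and 4.92 CPM in cortex at day 2 and 3.41, 3.73 and 3.28 CPM at day 6, against 1.20, 2.23 and 1.68 CPM in controls. No injured library overlapped a control. Its exons share at least 82 bases, the longest overlap of 1 pair of exons, with Ttc33 on the opposite strand. Ttc33 had 8886 counts over the 18 libraries, against 2106 for Ptger4. The rise was 1.38 ± 0.28 at day 2 (adjusted p = 0.00250) and 1.05 ± 0.28 at day 6 (adjusted p = 0.0291, called in 10 of 14 other settings). In skull it had 15.7, 15.9 and 18.6 CPM at day 2 and 9.68, 8.63 and 12.1 CPM at day 4, against 8.31, 10.3 and 8.72 CPM in controls. The day 2 libraries stood above all others, with a rise of 0.88 ± 0.16 (adjusted p = 0.00311), and day 4 lay below day 2 by -0.70 ± 0.16 (adjusted p = 0.0150, called in 11 of 14) and differed from control by 0.18 (95% interval -0.14 to 0.51).

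Ptger2 was close to the limit of detection in cortex, with 23 counts over the 3 libraries of day 2 and 20 at day 6, against 21 in controls. Day 2 replicate 1 had none. A change of Ptger2 was not detectable in cortex at this depth, and its 95% interval at day 2 ran from -1.20 to 2.21. In skull it had 2.85, 3.42 and 2.03 CPM at day 2 and 2.63, 2.79 and 4.80 CPM at day 4, against 0.893, 1.89 and 1.14 CPM in controls, with no overlap. The rise was 1.09 ± 0.38 at day 2 (adjusted p = 0.0499, called in only 2 of 14 other settings) and 1.41 ± 0.38 at day 4 (adjusted p = 0.0440, called in 7 of 14).

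The day 2 responses of the tissues were compared by an interaction contrast, cortex response minus skull response, over 12 libraries. It called 7 of the 10 genes, where 17.6% of all genes were called (14.0% higher, 3.60% lower). The median over all genes tested was 0.20, so that a value near it is no difference beyond the whole, and with other scaling factors this median was 0.13 to 0.16. The response was higher in cortex for Tbxas1 by 2.56 ± 0.24 (adjusted p = 6.25e-05), Alox5ap by 2.46 ± 0.40 (0.00181), Ptges by 1.78 ± 0.40 (0.0124), Alox5 by 1.65 ± 0.30 (0.00383), Hpgd by 0.86 ± 0.23 (0.0244) and Ptgs1 by 0.84 ± 0.22 (0.0232). It was lower in cortex for Ptgs2, at -2.17 ± 0.35 (adjusted p = 0.00229). Tbxas1, Alox5ap, Ptges, Alox5 and Ptgs2 were called in 19 of 19 other settings, Hpgd in 15 and Ptgs1 in 13. The differences of Ptgds (1.80 ± 0.60, adjusted p = 0.0645), Ptger4 (0.55, 95% interval -0.04 to 1.14) and Ptger2 (-0.53, -2.53 to 1.47) did not pass the test.

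Control tissues differed in most of the 10 genes. In control cortex 8 were lower than in control skull, where 70.9% of all genes were called and 36.4% were lower. These 8, and 76.9% of all genes, did not overlap between the tissues. The differences, cortex minus skull, ran from -4.68 ± 0.21 for Hpgd (3.30 ± 0.942 CPM in cortex, 86.6 ± 6.34 CPM in skull; SD, n = 3 each) and -3.86 ± 0.39 for Alox5ap to -1.13 ± 0.16 for Ptgs1. Ptgs2 was at 19.8 ± 1.00 CPM in control cortex and 18.8 ± 0.471 CPM in control skull, a difference of 0.11 (95% interval -0.09 to 0.31, adjusted p = 0.368). Ptgds differed by -0.62 (adjusted p = 0.159). The means of Tbxas1, Alox5ap and Ptges in cortex at day 2, 10.7, 4.59 and 24.7 CPM, were below the means of control skull, 14.6, 11.1 and 51.5 CPM.

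Per exon length, Ptgds had the highest level of the 10 genes in every group and Ptger2 the lowest. The Ptgds mean was 203 CPM per kb in cortex at day 2 and 325 at day 6, against 399.8 in control cortex, and 97.2 in skull at day 2 and 156 at day 4, against 624 in control skull. In injured skull it no longer stood clear of Hpgd, at 81.6 and 79.1 CPM per kb, since libraries overlapped at both times. In control cortex Ptgs2 was next after Ptgds (4.33 CPM per kb) and stood above Ptgs1 (2.93) in every library. In cortex at day 2, Ptges (6.27) was second and did not differ from Ptgs2 (6.01) beyond their spread, whereas in controls it stood below Ptgs2, Ptgs1 and Hpgd (1.27). In skull at day 2, Ptgs2 (27.2) and Ptges (19.9) overlapped and stood above Alox5ap (9.27), and at day 4 Ptgs2 (2.29) overlapped Tbxas1 (2.47) and Ptger4 (1.53). The Tbxas1 exons add up to 9094 bases over all annotated transcripts, which lowers its level per length.

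Of 59 other pathway genes listed, 55 were in the table and 45 to 49 were tested. In cortex at day 2, 9 rose and 4 fell of 45 (median 0.08), where 14.7% of all genes were higher and 9.99% lower. At day 6, 12 rose and none fell (median 0.12), where 7.93% of all genes were higher and 2.38% lower. In skull at day 2, 4 rose and 9 fell of 47 (median -0.09), where 17.8% of all genes were higher and 16.6% lower. At day 4, 9 rose and 3 fell (median 0.11), where 5.83% of all genes were higher and 4.79% lower. The cytosolic phospholipase Pla2g4a, which releases arachidonic acid, rose in cortex at day 2 (21.8 ± 3.30 CPM against 3.09 ± 0.224 CPM in controls; 2.86 ± 0.23, adjusted p = 2.51e-06), in cortex at day 6 (1.46) and in skull at day 2 (1.24 ± 0.18, adjusted p = 0.00127), and in skull it lay lower at day 4 than at day 2 (-1.13). The annexin Anxa1, an inhibitor of phospholipase A2, rose in cortex at both times (2.51 and 2.46) and in skull at day 2 (0.81). Other phospholipases that rose were Pla2g15 (0.83) and Pla2g7 (0.56) in cortex at day 6 and Pla2g5 (0.70) in skull at day 4. The list of phospholipases and regulators did not move 1 way. In cortex at day 2, 2 of 14 tested rose and 1 fell, and in skull at day 2, 2 of 15 rose and 4 fell.

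Among the other prostaglandin synthases, Hpgds, the haematopoietic prostaglandin D synthase, rose in cortex at day 2 (2.02 ± 0.23, adjusted p = 8.16e-05) and day 6 (2.15 ± 0.23, adjusted p = 1.80e-04). In skull it fell at day 2 (-0.64) and rose at day 4 (0.79). The mean of Hpgds was 35.6 CPM in cortex at day 2 and 39.4 CPM at day 6, against 9.05 CPM in controls, where Ptgds showed no called change. Ptges2 fell in cortex at day 2 (-0.49), Ptges3, a co-chaperone with prostaglandin E synthase activity, rose in skull at day 2 (0.75), and Fam213b, a prostamide synthase, fell in cortex at day 2 (-0.55) and in skull at both times (-0.90 and -0.75). Of the 4 genes of transport and clearance, the reductase Ptgr1 rose in cortex at day 2 (1.99), at day 6 (1.53) and in skull at day 2 (1.01), and the exporter Abcc4 rose in cortex at both times (0.80 and 0.69). The prostaglandin D2 receptor Ptgdr rose in cortex (1.73 at day 2 and 1.71 at day 6), and the prostacyclin receptor Ptgir rose in skull at day 4 (1.03).

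In the leukotriene branch, 4 of 7 other synthesis genes rose in skull at day 4, where 5.83% of all genes were called higher. They were Mgst2 (1.69 ± 0.33, adjusted p = 0.0174), Ggt5 (0.88), Cotl1 (0.72) and Lta4h (0.58), the hydrolase that makes leukotriene B4. At day 2 none of the 7 passed the test, but the medians against control were 0.51 at day 2 and 0.72 at day 4. Day 4 against day 2, only Mgst2 was called (1.17, adjusted p = 0.0283), with a median of 0.29 over the 7. In cortex 2 of 5 rose at both times, where 14.7% of all genes were called higher at day 2 and 7.93% at day 6. Cotl1, an actin-binding protein that binds 5-lipoxygenase, rose by 1.56 and 1.55. The dipeptidase Dpep2 had 54 counts at day 2 and 34 at day 6, against 2 in controls, ratios of 34.9 (95% counting interval 9.21 to 296) and 23.3 (5.98 to 201), intervals that cover counting error only. The cysteinyl leukotriene receptor Cysltr1 rose in cortex at day 2 (2.34 ± 0.34, adjusted p = 2.52e-04) and day 6 (2.06), and the leukotriene B4 receptor Ltb4r1 rose in skull at day 4 (1.26). Gpr17, an oligodendrocyte precursor receptor, fell in cortex at day 2 (-0.54), rose at day 6 (0.60) and fell in skull at both times (-2.26 and -1.99). Alox12, the platelet lipoxygenase, rose in skull at day 4 (70.8 ± 26.8 CPM, against 31.9 ± 1.62 CPM in controls; 1.18, adjusted p = 0.0396). The lipoxygenases Alox8 (-2.49) and Aloxe3 (-1.37) fell in skull at day 2, as did the phospholipase Pla2g2d (-3.09) and the fatty acid amide hydrolase Faah (-2.43; -2.05 at day 4). In the interaction contrast, 12 of 49 were higher in cortex and none lower, led by Hpgds (2.72) and Faah (2.18). Of all genes 14.0% were higher and 3.60% lower, and the median of the 49 was 0.71 against 0.20 over all genes.

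**Figure D5:**
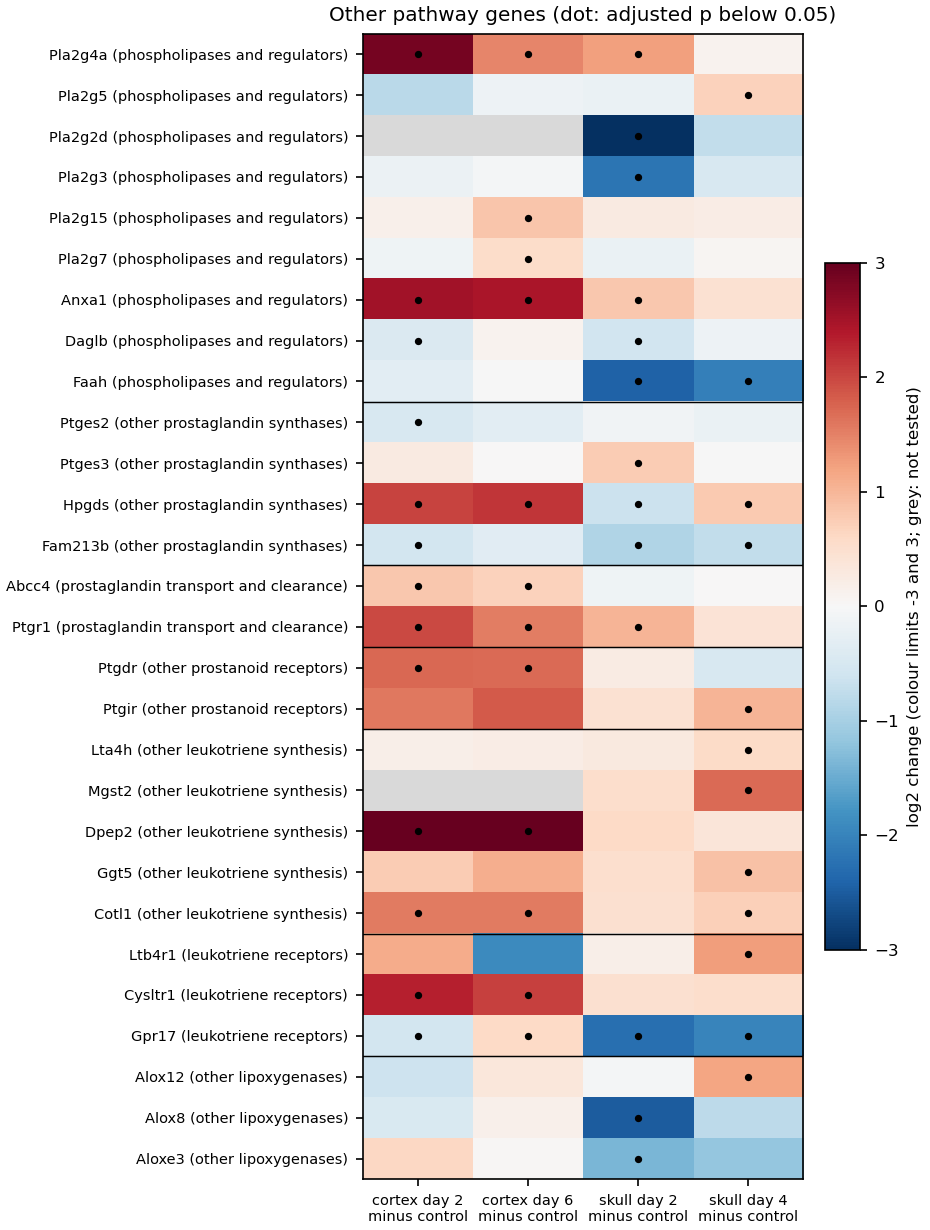
Log2 change of 28 other pathway genes called in at least 1 comparison of an injured group with its control, grouped by role, with colour limits at -3 and 3. A dot marks an adjusted p below 0.05 and grey marks genes not tested. Pla2g4a is red with a dot in the first 3 columns (2.86, 1.46 and 1.24), and Hpgds is red in cortex at both times (2.02 and 2.15) and blue in skull at day 2 (-0.64).

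The genes whose log2 CPM followed a member most closely were taken from Pearson's r over the 9 libraries of a tissue, which share groups and so rise and fall with the same injury. In skull the 3 genes most like Ptgs2 were Psmd1 (r = 0.993), Map2k1 (0.992) and Adm (0.990), those most like Ptges were Ccdc47 (0.993), Hspa4 (0.983) and Tmem69 (0.980), and those most like Ptgds were Pkp4 (0.980), Miga1 (0.974) and Aktip (0.973). Alox5 was followed by Arhgap30 (0.993), Limd2 (0.970) and Tab1 (0.969), and Alox5ap by Arhgdib (0.979), Lcn2 (0.966) and Rnpep (0.965). In cortex Ptges was followed by Aspg (0.991), Nfkbia (0.989) and Pold1 (0.988), Alox5ap by Il1r1 (0.989), Gnl3 (0.984) and Galnt15 (0.982), and Ptgs2 by Ubr7 (0.981), Paics (0.959) and Nt5e (0.939). Nfkbia encodes an inhibitor of NF-kB and Il1r1 the receptor of interleukin 1. Of the remaining members compared, Hpgd was followed by Patl1 (0.982) in cortex and Swap70 (0.976) in skull, Ptgds by Ncam1 (0.979) and Alox5 by Fkbp14 (0.979) in cortex. These are the best of 11660 to 12100 genes compared, and are given as a description with no test.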

How the data were processed

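Polyadenylated RNA of 18 libraries was prepared with NEBNext kits and read as pairs of 150 bases, per the labels' protocols. Reads were aligned with HISAT2 2.1.0 to mm10, per the submitters' processing notes. How reads were assigned to genes, and with which strand option, is not given in the sources used here. Values as deposited by the authors are raw counts per gene, not normalized. The 26783 lines of the table hold 25918 gene names, and 865 surplus identical lines were removed. Counts were fitted in R 4.3.3 with edgeR 4.0.16 (filterByExpr, TMM, robust quasi-likelihood, two-sided), each tissue over its 9 libraries, with Benjamini-Hochberg adjustment over all genes tested. The interaction used 12 libraries and the control comparison 6. Log2 changes carry a prior count of 0.125. Alternatives were other factors, filters, DESeq2 1.42.0, limma 3.58.1 voom, a replicate block, the compared groups alone and each library left out. Positions and exon lengths are from GENCODE M21 on GRCm38. The procedure was tested on simulated data. The members, lists and tests were chosen with earlier results of these data known. Other pathway genes named were drawn, per role, from up to 3 called genes with the smallest adjusted p and called genes against the rest of their role. Not every gene that met this rule is named. Genes whose pattern followed a member were the 3 of highest r among those averaging 5 CPM or more in the tissue, unnamed loci, antigen receptor segments and microRNA genes skipped.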

Additional observations from a re-analysis of the deposited data

Results flagged for a closer look

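The day 2 response differed between cortex and skull, by the interaction contrast of edgeR's quasi-likelihood test, for 7 of the 10 genes. The cortex response was higher than the skull response by 2.56 for Tbxas1, 2.46 for Alox5ap, 1.78 for Ptges, 1.65 for Alox5, 0.86 for Hpgd and 0.84 for Ptgs1 on the log2 scale, and for Ptgs2 the difference was -2.17. Over all genes tested the median was 0.20, and 17.6% were called (14.0% higher, 3.60% lower). Beside these differences, 7 of 8 monocyte and macrophage markers rose and none fell in cortex at day 2 (median 3.07), and 4 rose and 2 fell in skull at day 2 (median 0.36). In the interaction contrast 7 of the 8 were higher in cortex and none lower (median 2.87), as were 6 of 10 neutrophil markers, with none lower (median 3.25). Lists of other cell types shifted the same way, with none lower. Higher in cortex were 7 of 8 endothelial (median 1.30), 4 of 6 astrocyte (2.19) and 4 of 8 microglia markers (1.38). So were 4 of 8 neuron (2.25) and 4 of 8 meningeal fibroblast markers (1.83). The neuron markers did not rise in cortex. At day 2, 6 of 8 fell in cortex (median -0.57) and all 8 fell in skull (median -2.81), so that their contrast reflects the larger fall in skull. Of 7 osteoblast markers 1 was higher and 2 were lower (-0.71), and of 8 choroid plexus markers 1 was higher and 1 lower (-4.24). The part of any of these lists in the differences was not tested.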

How the results depend on the processing

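The direction and call of a member's log2 change held in 1015 of 1153 recomputed values, the call was lost in 88 and gained in 25, and the sign turned in 25, none of them called either way. The cause of these changes was not tested. At day 6 in cortex 3 members were called with limma voom, against 5. At day 4 in skull DESeq2 called 2864 genes and 7 members, the compared groups alone 1004 and 2, against 1853 and 4. The labels do not say whether replicate numbers pair the libraries. Within a tissue, correlations of deviations from group means were -0.46 to 0.238 for the same number and -0.308 to 0.34 for different numbers. With 3 libraries per group these values cannot exclude pairing. With the replicate block, skull at day 4 had 765 genes and 0 members called. In cortex at day 2 the block called Ptgds (-0.91, adjusted p = 0.0166) and Ptgs1 (0.47, adjusted p = 0.0486). Without 1 library, genes and members called ran from 3136 to 4622 and 6 to 8 in cortex at day 2, 1005 to 2091 and 1 to 7 at day 6, and 910 to 1948 and 1 between days 6 and 2. In skull they ran from 4024 to 6508 and 4 to 6 at day 2, 10 to 2537 and 0 to 5 at day 4, and 2260 to 3057 and 3 to 6 between days 4 and 2. For the interaction they ran from 2185 to 3978 and 5 to 8, and for the controls from 11653 to 12998 and 8 to 9. The libraries whose absence moved the count of genes by over 1.5 times were, in cortex at day 6, day 6 replicates 2 (1005) and 3 (1131) and control replicates 2 (1156) and 3 (1138); between days 6 and 2, day 6 replicates 1 (1273) and 3 (910) and day 2 replicate 3 (1245); in skull at day 4, day 4 replicates 2 (591) and 3 (237) and control replicate 3 (10); between days 4 and 2, day 4 replicates 1 (2294) and 3 (2260) and day 2 replicates 1 (2353) and 3 (2299); and, in the interaction, skull control replicate 3 (2185). Signs turned with limma voom for Ptger2 in cortex (-0.30 at day 2, 0.67 between days), with no filter for Ptgs2 in cortex at day 6 (0.00) and with upper quartile factors for Ptgs2 between controls (-0.00). Leaving out 1 library turned signs within these ranges. In cortex they were -0.06 to 1.07 for Ptger2 at day 2; -0.19 to 0.08 for Ptgs2, -0.43 to 0.11 for Ptgds and -0.21 to 0.71 for Ptger2 at day 6; and -0.09 to 0.18 for Ptgs1, -0.12 to 0.77 for Tbxas1 and -0.76 to 0.39 for Ptger2 between days. In skull they were -0.30 to 0.08 for Alox5 at day 2, and -0.18 to 0.11 for Hpgd and -0.01 to 0.50 for Ptger2 between days. For the interaction, Ptger2 ranged from -1.09 to 0.03. Depth limits Ptger2 in cortex, with 20 to 23 counts per group.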
